A study of Mus musculus with 8 samples.

Results

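The miR-200 family was described here as its 10 mature arms, out of 1881 mouse miRNAs on the array. Members were chosen by name and genomic cluster, as the arms of miR-200b, miR-200a and miR-429 (cluster 1, 6 arms) and of miR-200c and miR-141 (cluster 2, 4 arms). By their full names they are mmu-miR-200b-3p, mmu-miR-200b-5p, mmu-miR-200a-3p, mmu-miR-200a-5p, mmu-miR-429-3p, mmu-miR-429-5p, mmu-miR-200c-3p, mmu-miR-200c-5p, mmu-miR-141-3p and mmu-miR-141-5p, where mmu stands for mouse and is left out from here on. The data are 8 kidney samples from male C57BL/6 mice aged 9 weeks, each on 1 single-colour Agilent miRNA microarray: 4 from mice with ischemia-reperfusion injury (IRI, replicates 1, 2, 3 and 18) and 4 from sham-operated mice (replicates 1, 2, 3 and 6). In the IRI group the right kidney was removed and the vessels of the left kidney were clamped for 25 or 45 min, with kidneys taken 12 or 24 h afterwards. Sham mice had a midline incision only, so nephrectomy separates the groups as well as ischemia. Which IRI sample had which clamp or harvest time was not in the labels, and the 4 were treated as 1 group. Nothing in the labels ties each sample to an animal of its own, and p-values then cover only the spread among these samples, which may be technical.

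MicroRNAs are short RNAs that lower the output of messenger RNAs pairing with their seed, bases 2 to 8. The miR-200 family is carried by epithelial cells, kidney tubule included, and is known for holding down the transcription factors Zeb1 and Zeb2, which repress E-cadherin. Zeb1 and Zeb2 in turn repress both miR-200 loci, and each locus is read as 1 primary transcript from which several hairpins are cut.

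Both clusters hold arms with the same seeds, so the seed does not separate them. The 3p arms, the strands that carry the family's activity, are shown because the comparison turns on telling them apart. They are RefSeq sequences (GRCm38.p6), 5′ to 3′, with the seed in capitals.
miR-200b-3p: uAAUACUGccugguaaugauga
miR-429-3p: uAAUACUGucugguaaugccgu
miR-200c-3p: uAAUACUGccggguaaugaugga
miR-200a-3p: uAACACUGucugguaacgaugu
miR-141-3p: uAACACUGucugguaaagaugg
The first 3 share the seed AAUACUG, and miR-200a-3p and miR-141-3p share AACACUG. Among the 1608 of 1881 array entries that matched a RefSeq mature sequence, no other arm had either seed. Counted from 1 at the 5′ end, the seeds differ by U4C between miR-200b-3p and miR-200a-3p. Across the clusters, miR-200b-3p and miR-200c-3p differ within their first 22 bases only by U11G and A22G, and miR-200a-3p and miR-141-3p only by C17A and U22G.

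The array probes pair with the 3′ part of each arm, where most of these differences lie. One probe of each of these 4 arms is shown, 5′ to 3′ as the part that pairs with the miRNA, with capitals at the bases that do not match the seed mate in the other cluster.
miR-200b-3p probe: TcatcattaccAggcag
miR-200c-3p probe: TCcatcattaccCggc
miR-200a-3p probe: AcatcGttaccagacagt
miR-141-3p probe: CcatcTttaccagacag
Probes of the 3p arms were 15 to 19 bases long, and a probe of one cluster had 2 to 6 mismatches to the arms of the other. How far a probe also captures its seed mate was not tested.

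The array's annotation maps the cluster 1 probes to chr4:155428030-155429855 (mm9), a span of 1826 bases. In RefSeq the 3 cluster 1 hairpins lie on the minus strand inside the annotated span of the long noncoding RNA gene Gm13648, with Ttll10 and Gm52714 as the neighbouring genes. Cluster 2 probes map to chr6:124667943-124668406 (mm9), a span of 464 bases. In RefSeq these 2 hairpins overlap no other gene and lie between Phb2 and Ptpn6, also on the minus strand.

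The slide was the same for all 8 arrays, as was the scan. Sham arrays filled its row 1 and IRI arrays its row 2, so slide row and group cannot be told apart. Sham arrays had 327 to 379 detected miRNAs and IRI arrays 393 to 447. The 75th percentile of signal, by which arrays were scaled, was 406 ± 49.8 on sham arrays and 500 ± 55.9 on IRI arrays (SD, n = 4). The number of arrays, 4 in each group, limits precision. The tubule miRNAs miR-192-5p and miR-194-5p were detected on all 8 arrays.

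Of the 10 arms, 7 were detected on all 8 arrays and entered the test over 379 miRNAs: the 5 3p arms, miR-200b-5p and miR-200a-5p. The arms miR-429-5p, miR-200c-5p and miR-141-5p were detected on 0 of 8 arrays and have no measured level. Signal of miR-141-5p was below 0 on the 4 sham arrays and above 0 on 3 of the 4 IRI arrays, from -1.96 to 7.01, still below detection.

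After scaling, the 3 3p arms of cluster 1 fell in IRI kidney, by about the same size each, and the 2 of cluster 2 did not pass the test. All 5 arms called in the family were lower, and all 5 come from cluster 1. Over all 379 miRNAs 36.7% were called lower and 12.1% higher (limma, Benjamini-Hochberg adjusted p under 0.05), with a median log2 change of -0.11, so a fall after scaling was common on these arrays. Separation of the groups was common too: IRI values lay wholly below sham values for 35.9% of miRNAs.

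miR-200b-3p had scaled signals (linear scale, sham replicates 1, 2, 3 and 6) of 3660, 3441, 3657 and 3578, against 2758, 2396, 2542 and 2789 in IRI replicates 1, 2, 3 and 18. Every IRI array lay below every sham array. The log2 change was -0.45 ± 0.07 (SE, 95% interval -0.61 to -0.30, limma adjusted p = 0.0013).

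miR-200a-3p had 3059, 2714, 2993 and 2765 in sham and 2240, 2090, 1927 and 2116 in IRI kidney. The groups did not overlap here either. It fell by 0.46 ± 0.07 on the log2 scale (SE, adjusted p = 0.0015).

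miR-429-3p, the third hairpin of the cluster, had 1972, 1778, 1935 and 1841 in sham and 1394, 1239, 1308 and 1382 in IRI kidney. Again all IRI values were below all sham values. It fell by 0.50 ± 0.06 on the log2 scale (SE, adjusted p = 0.0010), and its scaled signal fell by 29.3%.

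miR-200c-3p, of cluster 2, had 321, 328, 319 and 327 in sham and 348, 350, 302 and 396 in IRI kidney. IRI replicate 3 was the lowest of all 8 arrays and the other 3 IRI arrays were the highest, so the groups overlapped. Its log2 change of 0.10 ± 0.08 (SE, 95% interval -0.09 to 0.30) did not pass the test (adjusted p = 0.34).

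miR-141-3p had 450, 444, 448 and 448 in sham and 415, 453, 378 and 476 in IRI kidney. IRI replicates 2 and 18 lay above all sham arrays, and IRI replicates 1 and 3 below them. Its log2 change of -0.06 ± 0.08 (SE, 95% interval -0.24 to 0.12) did not pass either (adjusted p = 0.53). Its narrow sham spread follows from the scaling: miR-141-3p itself stood at 98.9% to 100.3% of the scaling percentile on the sham arrays, and at 84.4% to 106% of it on the IRI arrays.

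**Figure D1:**
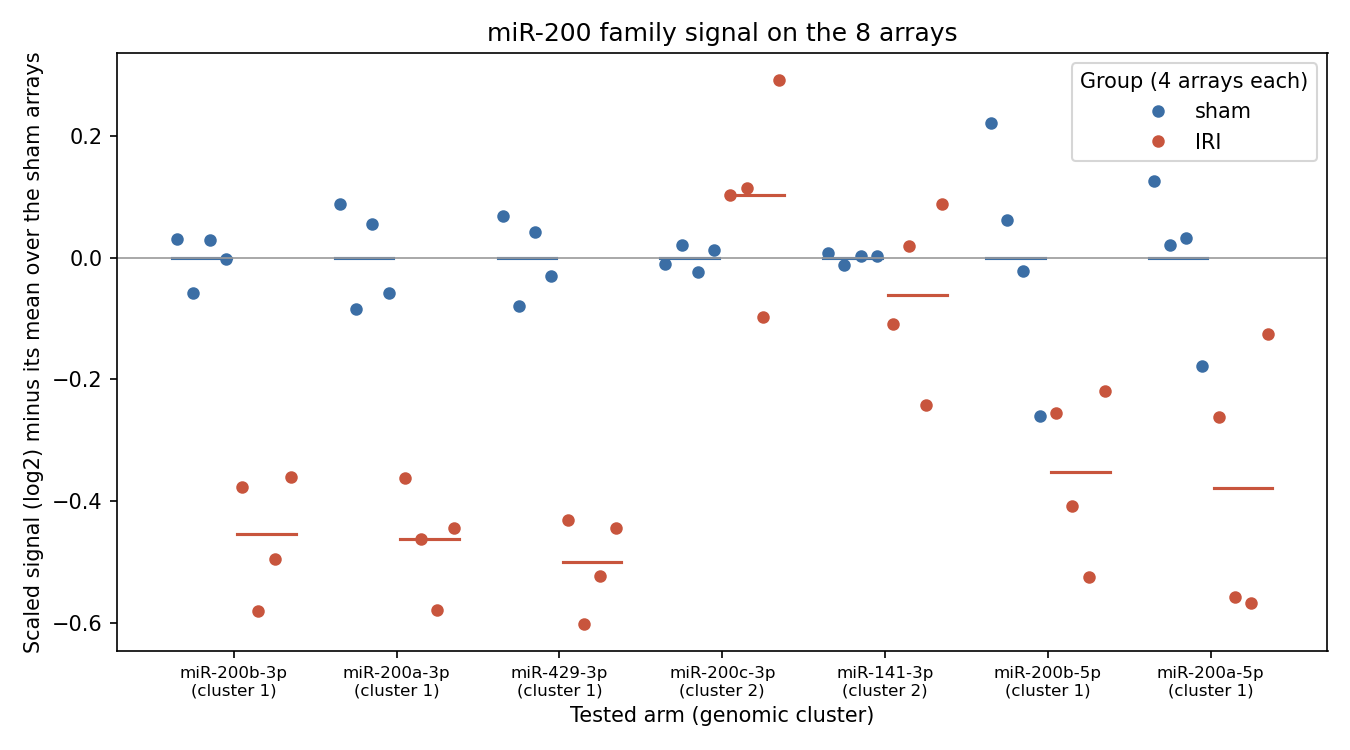
Scaled signal (log2) of the 7 tested arms on each of the 8 arrays, minus the arm's mean over the 4 sham arrays; points are arrays and short lines are group means. For the 3 cluster 1 3p arms all 4 IRI arrays lie below all 4 sham arrays, and for the other 4 arms the groups overlap.

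The 5p arms of cluster 1, the strands usually discarded from the duplex, were dim and overlapped between groups. miR-200b-5p had 59.8, 53.6, 50.5 and 42.8 in sham and 43.0, 38.7, 35.7 and 44.1 in IRI kidney, a log2 change of -0.35 ± 0.12 (SE, adjusted p = 0.038). Sham replicate 6 lay below IRI replicates 1 and 18. miR-200a-5p had 45.2, 42.0, 42.3 and 36.6 in sham and 34.5, 28.1, 27.9 and 38.0 in IRI kidney, where it was well above background on 0 of 4 arrays, against 2 of 4 in sham. Its fitted log2 change was -0.38 ± 0.12 (SE, 95% interval -0.66 to -0.10, adjusted p = 0.032), with the IRI side not well above background. Both calls were lost when sham replicate 1, 2 or 3 or IRI replicate 2 or 3 was left out. In these fits the adjusted p was 0.078 to 0.089 for miR-200b-5p and 0.069 to 0.085 for miR-200a-5p.

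The IRI arrays were brighter, and the size and call of a single arm's change depended on how arrays were scaled. Its sign depended on the scaling for miR-200c-3p and miR-141-3p only, and the tested cluster 1 arms stayed lower in each. Without scaling, none of the 7 tested arms separated the groups. Of all miRNAs, 1.06% then had IRI values wholly below sham and 21.9% wholly above. In unscaled signal miR-200b-3p had 3723, 3381, 3023 and 2843 in sham and 3273, 3005, 2620 and 2769 in IRI kidney, a log2 change of -0.15 (adjusted p = 0.41). Unscaled miR-200c-3p had 327, 322, 263 and 259 in sham and 413, 440, 312 and 393 in IRI kidney, a log2 change of 0.41 (adjusted p = 0.088). After quantile normalization, which gives every array 1 signal distribution, the change of miR-200b-3p was -0.10 and no longer passed (adjusted p = 0.24). Scaled to the labelling spike-ins, the changes were -0.13 for miR-200b-3p, -0.14 for miR-200a-3p, -0.18 for miR-429-3p, 0.43 for miR-200c-3p and 0.26 for miR-141-3p, with none called. The median of all miRNAs moved with them, to 0.17 without scaling and 0.19 with spike-ins. Relative to the median miRNA, then, cluster 1 was lower and cluster 2 higher in both. Under these 2 scalings the split of all calls turned from 139 lower and 46 higher to 1 lower and 53 higher without scaling, and to 2 lower and 72 higher with spike-ins.

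**Figure D2:**
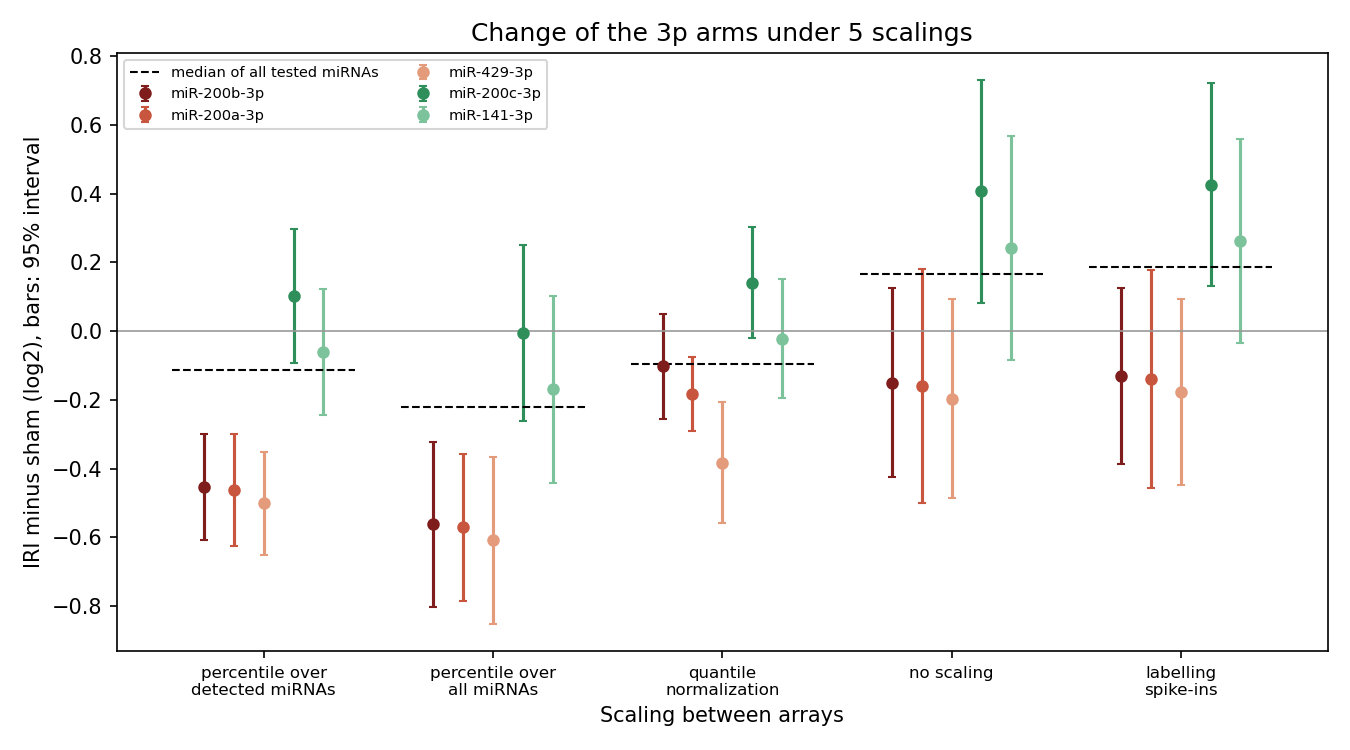
Log2 change (IRI minus sham, 4 arrays each) of the 5 3p arms under 5 ways of scaling the arrays; points are fitted changes, bars 95% intervals, and dashed lines the median change of all tested miRNAs. The set shifts up without scaling or with spike-ins, miR-200c-3p from 0.10 to 0.41 and 0.43, while the cluster 1 arms stay below the cluster 2 arms in each.

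The clusters were therefore compared within each array, where a factor common to the array cancels. A log2 ratio of 2 arms on 1 array is not a molar ratio, since probes differ in brightness, and only its difference between groups is read here. All ratios to one arm share that arm's noise. Against both arms of cluster 2, all 3 cluster 1 3p arms were lower in IRI kidney, by 0.39 to 0.60 on the log2 scale, and in all 6 pairs the groups did not overlap.

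Relative to miR-200c-3p, 39.9% of 378 miRNAs were called lower and 11.6% higher in IRI kidney (limma on the ratio), with a median change of -0.22, and for 39.2% the IRI ratios lay wholly below the sham ratios. The cluster 1 arms were thus among many that fell against miR-200c-3p. The log2 ratio of miR-200b-3p to miR-200c-3p was 3.51, 3.39, 3.52 and 3.45 on the sham arrays and 2.99, 2.77, 3.07 and 2.82 on the IRI arrays. It fell by 0.56 ± 0.11 (SE, adjusted p = 0.0035), a fall by 32.0% between arms that share a seed.

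The log2 ratio of miR-200a-3p to miR-200c-3p went from 3.25, 3.05, 3.23 and 3.08 in sham to 2.69, 2.58, 2.67 and 2.42 in IRI kidney (change -0.57 ± 0.12 SE, adjusted p = 0.0035). That of miR-429-3p to miR-200c-3p went from 2.62, 2.44, 2.60 and 2.50 to 2.00, 1.82, 2.11 and 1.80 (change -0.60 ± 0.12 SE, adjusted p = 0.0030). No IRI array reached the sham range in either ratio. The 5p arm miR-200b-5p had a change of -0.45 ± 0.13 against miR-200c-3p (SE, adjusted p = 0.013). For miR-200a-5p, not well above background in IRI kidney, it was -0.48 ± 0.12 (SE, adjusted p = 0.0083).

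Relative to miR-141-3p, 19% of 378 miRNAs were called lower and 15.9% higher, with a median change of -0.06, and 25.7% had IRI ratios wholly below sham. The log2 ratio of miR-200a-3p to miR-141-3p, arms that share a seed, was 2.77, 2.61, 2.74 and 2.62 in sham and 2.43, 2.20, 2.35 and 2.15 in IRI kidney. It fell by 0.40 ± 0.11 (SE, adjusted p = 0.019). The ratio of miR-200b-3p to miR-141-3p fell by 0.39 ± 0.11 (adjusted p = 0.022), and that of miR-429-3p by 0.44 ± 0.11 (SE, adjusted p = 0.016). These 3 calls rested on single arrays: without sham replicate 1 the adjusted p was 0.068 for miR-200b-3p, 0.068 for miR-200a-3p and 0.058 for miR-429-3p, and without sham replicate 3 it was 0.072, 0.068 and 0.060. Without IRI replicate 2 it was 0.061 for miR-200b-3p and 0.052 for miR-200a-3p. The count of all miRNAs called lower against miR-141-3p moved likewise, from 72 to 17 without sham replicate 1, 15 without sham replicate 3 and 35 without IRI replicate 2. The changes of the 3 arms stayed between -0.49 and -0.32 in all such fits. Neither miR-200b-5p (adjusted p = 0.093) nor miR-200a-5p (adjusted p = 0.071) passed against miR-141-3p.

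**Figure D3:**
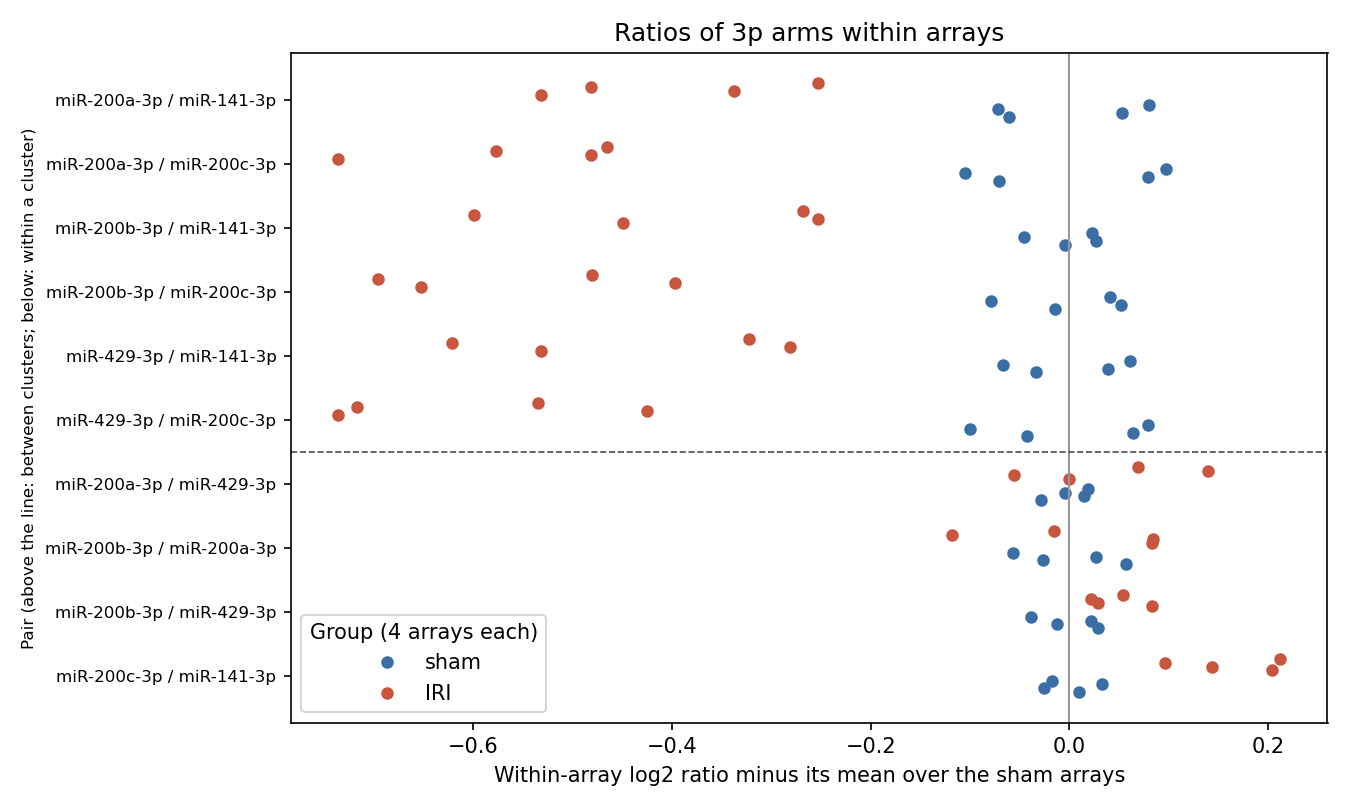
Within-array log2 ratio of each pair of 3p arms on the 8 arrays, minus the pair's mean over the 4 sham arrays; each point is 1 array. In the 6 pairs between clusters (above the dashed line) all 4 IRI arrays lie below all 4 sham arrays, while the 3 pairs within cluster 1 overlap and miR-200c-3p over miR-141-3p is higher on the IRI arrays.

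Within cluster 1 no pair of 3p arms passed the test, and the intervals were narrow. The log2 ratio of miR-200b-3p to miR-429-3p ranged only from 0.89 to 1.01 over the 8 arrays, with a change of 0.05 ± 0.06 (SE, 95% interval -0.09 to 0.18, limma adjusted p = 0.52). For miR-200b-3p to miR-200a-3p the change was 0.01 (95% interval -0.15 to 0.16, adjusted p = 0.92), and for miR-200a-3p to miR-429-3p 0.04 ± 0.07 (SE, adjusted p = 0.66). These intervals exclude a difference between arms of 0.39, the smallest change found between clusters. The background for these fits is one-sided: relative to miR-200b-3p, 2.12% of all miRNAs were called lower and 49.2% higher. Relative to miR-200a-3p these shares were 2.38% and 51.6%, and relative to miR-429-3p 2.12% and 57.9%. The log2 ratio of miR-200b-5p to miR-200b-3p differed by 0.10 ± 0.11 (SE) between groups and was not called (adjusted p = 0.48). That of miR-200a-5p to miR-200a-3p differed by 0.08 ± 0.10 (SE) and was not called either (adjusted p = 0.50).

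Within cluster 2 the 2 tests gave different calls. The log2 ratio of miR-200c-3p to miR-141-3p was -0.48, -0.43, -0.49 and -0.46 in sham and -0.26, -0.37, -0.32 and -0.26 in IRI kidney, with no overlap. How many of all miRNAs had ratios to miR-141-3p wholly above sham was not counted, so this separation has no background share. By limma, 15.9% of all miRNAs were called higher against miR-141-3p. The change of 0.16 ± 0.09 (SE, 95% interval -0.05 to 0.37) did not pass limma, whose moderated spread is larger than this pair's own (adjusted p = 0.18). In a two-sided exact permutation test over the 8 arrays it had p = 0.0286, the smallest that 4 against 4 arrays allow, and 0.041 after adjustment over the 10 pairs of 3p arms. The 6 pairs between clusters had the same exact p of 0.0286 and adjusted value of 0.041, and the 3 pairs within cluster 1 had exact p = 0.91, 0.14 and 0.46.

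The family can be put in 1 number per array, the mean log2 signal of the 3 cluster 1 3p arms minus that of the 2 cluster 2 3p arms. This score was 2.88, 2.74, 2.87 and 2.78 on the sham arrays (replicates 1, 2, 3 and 6) and 2.43, 2.20, 2.46 and 2.21 on the IRI arrays (replicates 1, 2, 3 and 18). The lowest sham value lies above the highest IRI value, and IRI replicates 2 and 18 were the lowest. The mean difference was -0.49, made of a change of -0.47 in the cluster 1 mean and 0.02 in the cluster 2 mean. This split depends on the scaling, whose percentile lay close to the signal of miR-141-3p itself. With spike-ins the cluster 1 arms changed by -0.18 to -0.13, and miR-200c-3p and miR-141-3p by 0.43 and 0.26. Each slide column held 1 array of either group, and within columns 1 to 4 the score differed by -0.45, -0.54, -0.42 and -0.57. It is a description over chosen members and was not tested.

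The difference was also present probe by probe. The 6 probes of the cluster 1 3p arms had log2 changes of -0.51 to -0.44, and the 4 probes of the cluster 2 3p arms of -0.07 to 0.16. In all 24 pairs of a cluster 1 with a cluster 2 probe, the IRI ratios lay wholly below the sham ratios, with changes of -0.67 to -0.36. These probes sum to the arms compared above, so the 24 pairs are not separate evidence. For whole miRNAs the share wholly below sham was 39.2% against miR-200c-3p and 25.7% against miR-141-3p. Probes of 1 arm overlap in sequence and are not replicates.

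Brightness moved with the cluster difference. Of the 317 miRNAs detected on all arrays, the 3 cluster 1 3p arms lay in the brightest of 4 signal classes of about equal size, whose median log2 change was -0.39 with 70.9% called lower. Both cluster 2 3p arms lay in the next class, with a median of -0.18 and 40.5% called lower. There miR-141-3p was the brightest miRNA, with a mean signal of 438, and the brightest class began at 449. Its class, and so its rank within a class, therefore depends on where the cut fell. Ranked from the most negative change among the 79 miRNAs of their own class, miR-429-3p was at 21, miR-200a-3p at 27 and miR-200b-3p at 28, against 46 for miR-141-3p and 51 for miR-200c-3p. After quantile normalization the cluster score difference was -0.28, and the ratios of miR-200b-3p to miR-200c-3p (adjusted p = 0.069), of miR-200b-3p to miR-141-3p (adjusted p = 0.59) and of miR-200a-3p to miR-141-3p (adjusted p = 0.25) no longer passed. The part of signal level in the cluster difference was not tested further.

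**Figure D4:**
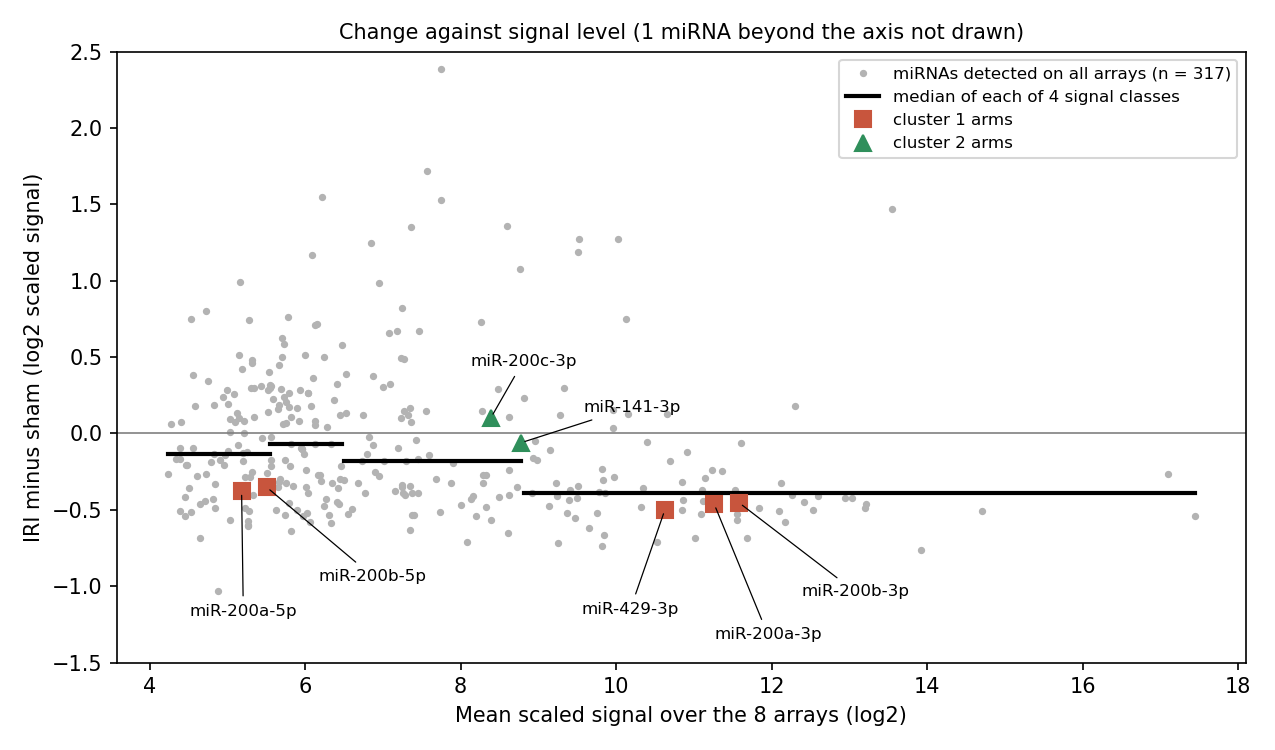
Log2 change (IRI minus sham) against mean scaled signal (log2) for the 317 miRNAs detected on all 8 arrays, 1 of which lies beyond the axis; squares are cluster 1 arms, triangles cluster 2 arms, and black lines the median change in each of 4 signal classes. The brightest class, which holds the 3 cluster 1 3p arms, has a median of -0.39, and the next, with both cluster 2 3p arms, of -0.18.

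Likeness was measured as the SD over the 8 arrays of a log2 ratio, where a small SD means 2 miRNAs moved in parallel. Among 316 other miRNAs miR-429-3p was the most like miR-200b-3p (SD 0.037), and miR-200a-3p stood at place 8 (SD 0.072), whereas miR-141-3p and miR-200c-3p stood at places 172 and 200. The most similar miRNAs outside the family were let-7b-5p (SD 0.060), miR-103-3p (SD 0.060) and let-7c-5p (SD 0.066). For miR-200c-3p the closest were miR-92a-3p (SD 0.074) and miR-19b-3p (SD 0.088), then miR-141-3p (SD 0.096) and miR-155-5p (SD 0.098). These SDs are descriptions over arrays that share a slide, and bright miRNAs have less noise.

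Other miRNAs tied to the epithelial state were measured only in part. Of that list of 6, 3 were tested and 2 called lower, beside 36.7% of all miRNAs, with a list median of -0.55 against -0.11 for all miRNAs. miR-203-3p, a skin and epithelial miRNA, fell by 0.63 ± 0.15 on the log2 scale (SE, adjusted p = 0.0088). miR-34a-5p, a p53 target, fell by 0.55 ± 0.11 (SE, adjusted p = 0.0048). The log2 change of miR-96-5p was -0.12 ± 0.19 (SE, adjusted p = 0.59), and miR-205-5p, miR-182-5p and miR-183-5p were not tested, being detected on too few arrays. Of 8 kidney epithelial miRNAs, 7 were tested and 7 were called lower after scaling, with a median of -0.45. Called lower were 36.7% of all miRNAs, and 70.9% of the brightest class, which held 6 of these 7. miR-192-5p fell by 0.69 ± 0.08 and miR-194-5p by 0.71 ± 0.09 (SE, adjusted p = 0.00075 and 0.0010), and miR-215-5p was detected on no array. All 7 were called lower relative to miR-200c-3p, beside 39.9% of all miRNAs. Relative to miR-141-3p 5 of the 7 were called lower, beside 19%, and miR-10a-5p (adjusted p = 0.10) and miR-10b-5p (adjusted p = 0.086) did not pass.

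Markers of other cells differed between the groups as well, to be read beside the 36.7% of all miRNAs called lower and 12.1% called higher. Summed scaled signal of 3 red blood cell miRNAs was 43.0 to 902 in sham and 2940 to 4087 in IRI kidney, and 3 of 3 were called higher. Of these, miR-451a was detected on all arrays. miR-144-3p was detected on 2 of 4 sham arrays and miR-486a-5p on 0 of 4, and both on 4 of 4 IRI arrays. Both thus entered the test only through the IRI group, which favours a higher call. That of 3 leukocyte miRNAs was 418 to 563 in sham and 625 to 904 in IRI kidney, with 1 of 3 called higher, the myeloid miR-223-3p. miR-142a-3p had a log2 change of 0.29 (adjusted p = 0.16) and the lymphocyte miRNA miR-150-5p of -0.57 (adjusted p = 0.057), neither called; relative to miR-200c-3p, miR-150-5p was called lower (log2 change -0.67, adjusted p = 0.029). Endothelial miRNAs summed to 4623 to 5333 in sham and 3836 to 4321 in IRI kidney, with 2 of 2 called lower. For fibroblasts and mural cells the sum was 1705 to 1877 in sham and 1039 to 1605 in IRI kidney, with 2 of 4 called lower. The 4 tubule miRNAs summed to 13971 to 16412 in sham and 10072 to 11516 in IRI kidney, with 4 of 4 called lower. These 4 (miR-192-5p, miR-194-5p, miR-204-5p and miR-30a-5p) are among the 7 kidney epithelial miRNAs already counted above. The brightest class, with 70.9% called lower, held 3 of the 4. In whole kidney, fewer cells of a type and less RNA per cell cannot be told apart. The part of these cell types in the cluster difference was not tested.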

How the data were processed

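Total RNA from 30 mg of kidney was labelled with Cy3 (100 ng per array), per the labels' protocols. The deposited spot intensity values come from Agilent Feature Extraction (version 12.0.3.1 in the submitters' processing notes). Background was subtracted and arrays were not normalized to each other, per the file headers. The second deposited table, a linear ratio for each miRNA, served as an alternative. Over 317 miRNAs it matched the total gene signal times 1 factor per array and 1 centre per miRNA to within 1.1e-05 (log2), higher meaning more signal; how factor and centre were chosen stays unknown. Its column medians were 0.859, 1.23, 1.29 and 1.30 for sham and 0.658, 0.646, 1.16 and 0.749 for IRI.

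Control spots and outlier spots (1422 to 1560 of 56430 per array; 0 saturated) were left out. Processed signals were averaged per probe, summed per miRNA, divided by the array's 75th percentile (taken over 317 miRNAs with detection on all 8 arrays), raised to a floor of 17.3 (5th percentile of detected signals) and taken to log2. Testing covered 379 miRNAs, those with detection on every array of sham, IRI or both, using limma 3.58.1 under R 4.3.3 (two-sided, Benjamini-Hochberg over all of them, threshold 0.05); ratios were fitted likewise after subtracting the anchor's log2 signal. Exact permutation tests used scipy 1.17.1. The fit was tested on simulated data. Replicate numbers name samples and did not pair them. Named miRNAs are the members, the fixed lists, and the 3 miRNAs most like miR-200b-3p and miR-200c-3p. Members and lists were chosen with earlier results of these data known, and ratios to cluster 1 arms were chosen as alternatives after seeing the data. A genome of build mm9 was not used here; names and sequences come from RefSeq GRCm38.p6.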

Additional observations from a re-analysis of the deposited data

How the results depend on the processing

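The cluster score difference (-0.49) kept its sign in all 23 alternatives and moved beyond the spread only under quantile normalization (-0.28). Many of these could not move it. A factor per array, the miRNA filter, variance moderation and the slide column block leave it unchanged by construction. Leaving out 1 array gave -0.54 to -0.45. The 3 calls of cluster 1 3p arms relative to miR-200c-3p became 2 at the fewest (3 in every fit without 1 array). Those relative to miR-141-3p became 1 under quantile normalization and 0 to 3 without 1 array. The 5 arms called lower became 4 with quantile normalization or the mean of probe log2 values, 3 with the deposited table, no filter, no variance moderation, the slide column block or the total gene signal column, 0 without scaling or with spike-ins, and 3 to 5 without 1 array. The change of miR-141-3p turned to 0.24 without scaling and 0.26 with spike-ins, and that of miR-200c-3p to -0.0053 with the percentile over all miRNAs. Over all miRNAs, 185 calls (139 lower, 46 higher) became 111 with no filter (90 lower, 21 higher), 54 without scaling (1 lower) and 74 with spike-ins (2 lower, 72 higher); higher calls were 30 with the mean of probe log2 values and 22 with normexp. Without 1 array there were 150 to 190 calls, 114 to 145 lower and 36 to 62 higher. With the replicate block 67 were called (50 lower, 17 higher), and miR-200b-3p relative to miR-141-3p had adjusted p = 0.061; the numbers 1, 2 and 3 did not pair samples (correlations of deviations -0.09, -0.14 and 0.28 over 317 miRNAs). Fitted with miR-200c-3p as the anchor, the ratio of miR-141-3p to miR-200c-3p passed without variance moderation (adjusted p = 0.0098). With limma's moderation this same fit had adjusted p = 0.20. Beyond what scaling, filtering and fewer arrays change by construction, the cause of these shifts was not tested. Signal over background limits the 5p arms.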
